A study of Mus musculus with 92 samples.

Results

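STAG1 was called at far fewer places in mouse germline stem cells (GSC) than in primordial germ cell-like cells of the stage named d4c7PGCLC in the labels. In the lists as deposited, almost all of the places called in GSC had also been called in d4c7PGCLC, whose lists were about 4 times as long. In the same lists most d4c7PGCLC sites had no STAG1 peak in GSC. With each list cut to its 9641 strongest peaks by fold enrichment, only 8154 d4c7PGCLC sites were left. Of these, 64.7% had a STAG1 peak in GSC. The sites kept in the deposited lists lay almost entirely at places where CTCF was called in GSC. The places compared are intervals from chromatin immunoprecipitation followed by sequencing (ChIP-seq), in which DNA bound by a protein is enriched with an antibody and read. The values are peak lists, the intervals that the authors' peak caller found enriched, and not the reads behind them. The peaks of the 2 STAG1 lists of a cell type were merged, and a site was a merged interval overlapped by both lists. A d4c7PGCLC site was kept if a peak of either GSC list overlapped it and lost if none did. A GSC site was gained if no peak of either d4c7PGCLC list overlapped it. This gave 35176 sites: 24090 lost, 11020 kept and 66 gained, set against 53518 merged intervals over the 10 STAG1 lists of the series and 154860 over all 30 lists used.

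GSC are self-renewing spermatogonial cells in culture, and primordial germ cell-like cells resemble the embryonic founders of the germline. The wild-type GSC were of the line AAG, which carries Acrosin-EGFP and beta-Actin-EGFP, and were sorted for the AAG signal. The wild-type d4c7PGCLC were of the line BVSC (BDF1-2-1), with Blimp1-mVenus and Stella-ECFP reporters, and were sorted for the Blimp1-mVenus signal. The cell line thus differs between the groups together with the cell type, and the effects of the 2 cannot be told apart. STAG1 had 2 lists in each group and STAG2 had 3 in each. STAG3 had 3 lists in wild-type GSC. CTCF had 4 lists, each called on pooled replicates of AAG GSC of a mutant genotype: Stag1Stag2dKO(Stag3-only), Stag1Stag3dKO(Stag2-only), Stag2Stag3dKO(Stag1-only) and Stag3 KO. CTCF lists of d4c7PGCLC were not used here. Whether the replicates were separate cultures is not in the labels. The p-values therefore reflect list-to-list spread alone, which may be technical. Nor do they say whether STAG1 and STAG2 were read from the same chromatin. Sequencing depth is unknown, so the absence of a peak means only that the caller found none.

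Cohesin is a ring-shaped complex of SMC1A, SMC3, RAD21 and a STAG subunit. It extrudes chromatin loops and holds sister chromatids together. Somatic cells use STAG1 or STAG2, and STAG1 is best known for stable binding at sites of CTCF, the zinc finger protein that halts loop extrusion. STAG3 is best known from meiotic chromosomes.

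To show what such sites look like in sequence, promoters with a kept or a lost site are printed below, from 250 bases before to 50 bases after the gene start (RefSeq, GRCm38.p6, on the strand of the gene). The first 3 hold a match to a core of the CTCF motif, CCANNAGNNGGC, in capitals on either strand. The last 2 hold none. Fold enrichment, given with each, is the authors' value for a peak over its local background.

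Sycp2, which encodes an element of the synaptonemal complex, had a kept site at its start (chr2:178407609-178407908, minus strand, match from position −96). Its fold enrichment was 6.43 in GSC list 2, with no peak in GSC list 1, against 8.35 and 8.56 in the d4c7PGCLC lists.
Sycp2: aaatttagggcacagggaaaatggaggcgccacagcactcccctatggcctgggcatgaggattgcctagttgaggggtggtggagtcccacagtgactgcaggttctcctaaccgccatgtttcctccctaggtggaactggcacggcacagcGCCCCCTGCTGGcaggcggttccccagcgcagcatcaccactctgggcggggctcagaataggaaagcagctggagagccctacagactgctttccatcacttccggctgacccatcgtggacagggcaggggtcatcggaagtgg
Peg12, a paternally expressed imprinted gene, also had a kept site (chr7:62464461-62464760, minus strand, match from position −195). It had 5.26 in GSC list 2 and no peak in list 1, against 16.7 and 22.8 in d4c7PGCLC.
Peg12: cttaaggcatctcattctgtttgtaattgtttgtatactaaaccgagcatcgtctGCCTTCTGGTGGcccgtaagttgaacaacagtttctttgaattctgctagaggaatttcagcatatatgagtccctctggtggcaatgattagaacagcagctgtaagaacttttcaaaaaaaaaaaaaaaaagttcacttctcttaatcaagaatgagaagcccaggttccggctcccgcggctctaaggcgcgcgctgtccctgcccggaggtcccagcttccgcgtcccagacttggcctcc
Rps4x, a ribosomal protein gene on chromosome X, had a lost site at a shared CTCF site in spite of its match (chrX:102189342-102189641, minus strand, match from position −56). It had no GSC STAG1 peak, against 4.50 and 4.67 in d4c7PGCLC.
Rps4x: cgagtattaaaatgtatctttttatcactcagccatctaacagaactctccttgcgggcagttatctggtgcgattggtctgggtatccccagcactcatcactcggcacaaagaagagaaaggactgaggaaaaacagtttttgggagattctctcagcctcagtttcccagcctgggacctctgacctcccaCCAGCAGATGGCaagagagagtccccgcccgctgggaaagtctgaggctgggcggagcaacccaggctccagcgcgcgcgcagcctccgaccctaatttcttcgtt
Stag1 itself had a kept site at its start with no match in this window (chr9:100643198-100643497, plus strand), at 6.60 and 6.77 in GSC, against 24.7 and 23.0 in d4c7PGCLC.
Stag1: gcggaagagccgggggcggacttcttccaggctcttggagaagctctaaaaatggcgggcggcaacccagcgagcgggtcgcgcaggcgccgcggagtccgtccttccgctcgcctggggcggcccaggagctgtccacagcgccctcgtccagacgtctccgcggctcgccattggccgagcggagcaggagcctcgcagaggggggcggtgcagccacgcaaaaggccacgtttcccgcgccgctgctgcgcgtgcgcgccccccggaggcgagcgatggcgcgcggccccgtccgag
Prdm1, which encodes the PGC specifier BLIMP1, had a lost site at its start away from the shared CTCF sites and with no match (chr10:44458699-44458998, minus strand). It had no peak in any GSC STAG1 or STAG2 list, against 15.9 and 19.5 in the d4c7PGCLC STAG1 lists.
Prdm1: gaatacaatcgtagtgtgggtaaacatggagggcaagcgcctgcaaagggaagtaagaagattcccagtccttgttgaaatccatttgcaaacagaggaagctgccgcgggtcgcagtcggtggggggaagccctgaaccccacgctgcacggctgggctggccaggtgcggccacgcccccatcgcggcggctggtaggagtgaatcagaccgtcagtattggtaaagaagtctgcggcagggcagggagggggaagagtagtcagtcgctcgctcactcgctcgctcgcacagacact
Of all promoters in the table, 2.43% (797 of 32851) held a match to this core. Among those overlapped by a kept site 16.8% did (126 of 750), and among those overlapped by a lost site 10.0% did (113 of 1130). At shared CTCF sites, kept sites gave 18.3% (126 of 687) and lost sites 13.2%. Lost sites elsewhere gave 4.40%, and promoters with a shared CTCF site but no STAG1 site of either cell type gave 7.50%. Of the 3 promoters overlapped by a gained site 0 held a match. A match is a description of these letters only.

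The GSC STAG1 lists held 9641 and 10778 peaks and the d4c7PGCLC lists 38491 and 42013. The GSC lists covered 3.03 and 3.51 megabases, against 14.8 and 16.7 megabases in d4c7PGCLC. The groups did not overlap, and the difference in log2 peak number was −1.98 (two-sided exact permutation p = 0.333, the smallest that 2 lists against 2 allow). Within a cell type the lists were alike: 73.1% of merged intervals were in both GSC lists (8615 of 11791) and 77.6% in both d4c7PGCLC lists (35110 of 45217). Median fold enrichment was 8.19 and 8.05 in GSC, against 8.78 and 8.76 in d4c7PGCLC.

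Of the 35110 d4c7PGCLC sites, 68.6% were lost and 31.4% kept. Of the kept sites, 8413 had a peak in both GSC lists, 864 in list 1 alone and 1743 in list 2 alone. In the other direction, 8549 of the 8615 GSC sites (99.2%) overlapped a d4c7PGCLC peak, and 0.766% were gained. These counts rest on lists of very different length. When each list was cut to its 9641 peaks with the highest fold enrichment, 8154 d4c7PGCLC sites were left in place of 35110. Of these stronger sites 64.7% were kept, and 69.5% of GSC sites overlapped a d4c7PGCLC peak. The counts were then 2881 lost, 5273 kept and 2482 gained.

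Strength in d4c7PGCLC went with being kept. Sites were split into 10 bins of equal size by the worse of their ranks of fold enrichment in the 2 d4c7PGCLC lists. In the strongest bin 77.4% of sites were kept, in the fifth 28.9% and in the weakest 6.38%. Median fold enrichment was 17.1 and 18.6 at kept sites in the 2 d4c7PGCLC lists, against 7.71 and 8.55 at lost sites. Kept sites were also wider, with a median of 544.5 bp against 393 bp. In the strongest bin 793 sites were lost. Over the 8413 kept sites with a peak in all 4 lists, fold enrichment had a Spearman correlation of 0.485 to 0.514 between a GSC and a d4c7PGCLC list. Within a cell type it was 0.750 for GSC and 0.887 for d4c7PGCLC. These are descriptions over sites that share libraries.

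**Figure D1:**
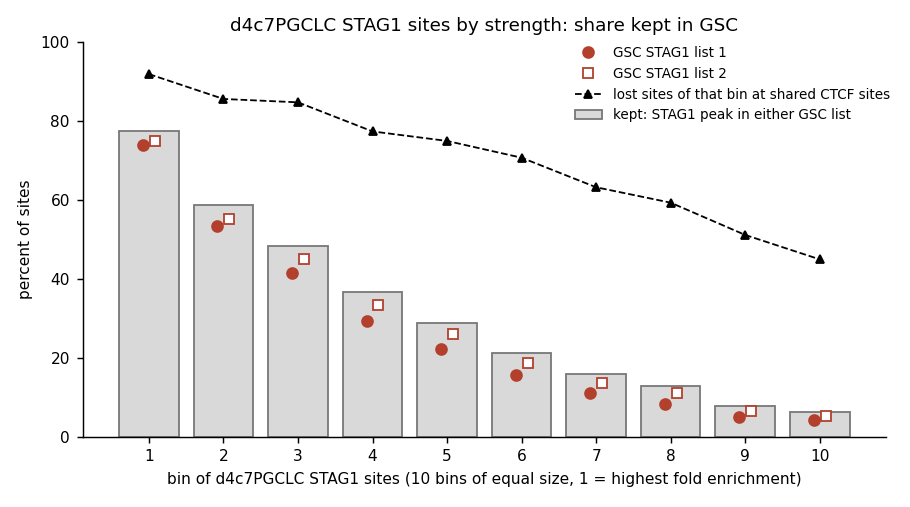
Share of d4c7PGCLC STAG1 sites kept in GSC (percent, y axis) by bin of d4c7PGCLC fold enrichment (x axis, 10 bins, 1 = highest, 3511 sites each). Bars count a peak in either GSC list and points a peak in GSC list 1 or list 2, and the dashed line gives the share of the lost sites of that bin at shared CTCF sites, which runs between 91.8% and 44.9%; kept shares go down at every step, between 77.4% and 6.38%.

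Sites away from CTCF were seldom kept. Shared CTCF sites are the 36623 intervals called for CTCF in all 4 GSC genotypes. At such places 40.9% of d4c7PGCLC sites were kept (10964 of 26824). Away from them 0.676% were kept (56 of 8286), and away from every CTCF peak of any genotype 0.586% (31 of 5290). Of the kept sites 99.5% lay at shared CTCF sites, of the lost sites 65.8% and of the gained sites 62.1%. CTCF fold enrichment was higher at kept sites too, with medians of 29.9 to 33.3 in the 4 CTCF lists, against 14.5 to 17.4 at lost sites. Among list peaks as a whole, 98.9% and 97.0% of GSC STAG1 peaks lay at shared CTCF sites, against 72.2% and 69.2% in d4c7PGCLC. The means were 98.0% ± 1.29 in GSC and 70.7% ± 2.13 in d4c7PGCLC (SD, n = 2 each), a difference of 27.2 percentage points (two-sided exact permutation p = 0.333). Cut to equal length, the lists differed by 3.82 points (98.6% in GSC, 94.8% in d4c7PGCLC). CTCF was read in GSC alone, so only the GSC lists were set against CTCF of their own cell type and line.

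Many lost sites lay at CTCF sites of GSC without a call for any STAG protein in wild-type GSC. Of the 24090 lost sites, 15870 (65.9%) had no STAG2 and no STAG3 peak in any wild-type GSC list. Of these, 8493 lay at shared CTCF sites, where 15860 lost sites lay in all. A STAG2 peak in 2 or more GSC lists stood at 3598 lost sites (14.9%), and a STAG3 peak in 2 or more lists at 2617 (10.9%). Both held for 1127 sites at shared CTCF sites and 144 elsewhere.

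STAG2, the paralogous subunit, took no part in the choice of the sites and was called along the same lines. Lost sites had a STAG2 peak in 21.2%, 9.0% and 18.3% of cases in the GSC lists, against 87.0%, 69.0% and 71.8% in the d4c7PGCLC lists. The groups did not overlap, with means of 16.2% ± 6.39 in GSC and 75.9% ± 9.71 in d4c7PGCLC (SD, n = 3 each). The difference was −59.8 points. Its two-sided exact permutation p was 0.1, which is as low as 3 lists against 3 can give. Kept sites had a STAG2 peak in 94.8%, 84.2% and 96.0% of cases in GSC, against 97.2%, 90.3% and 91.9% in d4c7PGCLC. Here the groups overlapped, with a difference of −1.45 points (two-sided exact permutation p = 0.8) whose sign turned when GSC STAG2 list 2 was left out (2.29 points). Within each STAG2 list, kept minus lost came to 73.6, 75.2 and 77.7 points in GSC, against 10.2, 21.3 and 20.1 points in d4c7PGCLC (two-sided exact permutation p = 0.1). STAG2 lists also differed in length, with 25021, 13698 and 25979 peaks in GSC, against 53988, 35799 and 37236 in d4c7PGCLC. At equal length the lost sites were defined anew from the cut lists, as 2881 sites. The gap there was −62.6 points (29.4% in GSC, 92.0% in d4c7PGCLC).

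**Figure D2:**
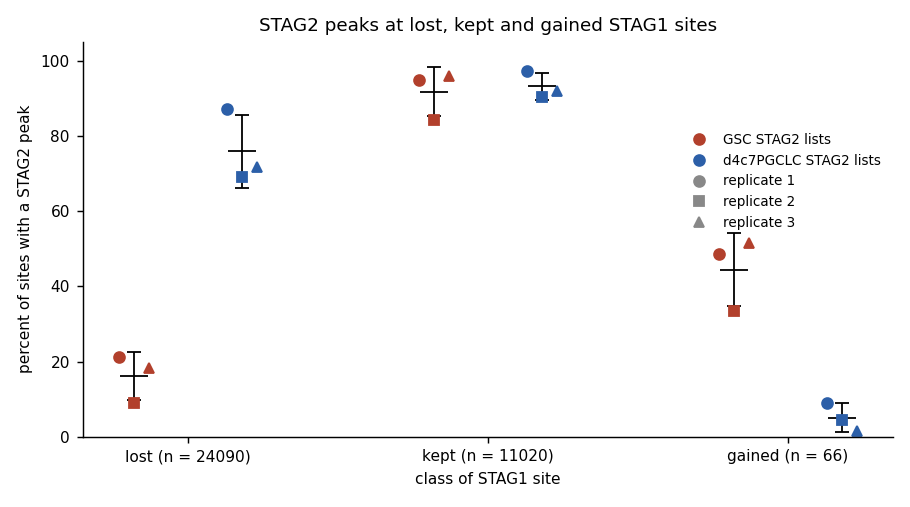
Share of lost, kept and gained STAG1 sites (x axis) that had a STAG2 peak (percent, y axis), for each of 3 GSC lists (red, left) and 3 d4c7PGCLC lists (blue, right), with the mean and SD in black. At lost sites all GSC lists lie at 21.2% or lower and all d4c7PGCLC lists at 69.0% or higher, at kept sites the groups overlap, and at gained sites the GSC lists lie higher.

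STAG3, read in GSC alone, was likewise called at 3.54%, 14.7% and 15.5% of lost sites in its 3 lists and at 52.9%, 84.9% and 85.5% of kept sites. The first STAG3 list, with 12832 peaks against 38631 and 39681, gave the low value each time.

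Kept sites were those most often called at the stages before d4c7PGCLC as well. A STAG1 site, meaning a place in both lists, had been called in embryonic stem cells (ESC) at 91.5% of kept and 65.6% of lost sites. In epiblast-like cells (EpiLC) the shares were 66.8% and 25.8%, and in d2PGCLC 75.6% and 44.6%. All 3 earlier stages had a site at 6706 kept sites (60.9%) and at 5140 lost sites (21.3%). No STAG1 peak in any list of these stages stood at 232 kept sites (2.11%) and 2477 lost sites (10.3%). These stages were of the line BVSC, like d4c7PGCLC. The shares were not matched for strength. Kept sites had the higher median d4c7PGCLC fold enrichment (17.1 and 18.6, against 7.71 and 8.55 at lost sites).

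By place, kept sites lay more often outside genes and less often in gene bodies than lost sites. Outside genes lay 54.3% of kept and 42.3% of lost sites, and in gene bodies more than 2500 bp from a start 30.8% of kept and 43.9% of lost sites. Within 2500 bp of a protein-coding gene start lay 15.0% of kept and 13.8% of lost sites. Restricted to shared CTCF sites, 48.7% of d4c7PGCLC sites outside genes were kept, 42.0% near starts and 31.5% in gene bodies. Peaks near starts made up 14.4% ± 0.338 of the GSC lists and 14.6% ± 0.418 of the d4c7PGCLC lists (SD, n = 2 each). This difference of −0.29 points had a two-sided exact permutation p of 0.667, and 2 lists against 2 cannot give less than 0.333. The difference was 0.00775 points without d4c7PGCLC list 1. The median distance between neighbouring sites was 112 kb in GSC, against 28.9 kb in d4c7PGCLC. This distance also depends on the number of sites, 8615 in GSC and 35110 in d4c7PGCLC.

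Chromosome X had the lowest kept share of the autosomes and X. On X 21.1% of d4c7PGCLC sites were kept (161 of 764), against 31.6% on the autosomes, which ranged between 29.5% on chromosome 16 and 33.7% on chromosome 11. At shared CTCF sites the shares were 28.9% on X and 41.1% on the autosomes, and away from them 0 of 206 X sites were kept. X peaks made up 1.49% and 1.46% of the GSC lists, against 2.17% and 2.18% of the d4c7PGCLC lists (difference of means −0.70 points, two-sided exact permutation p = 0.333). Cut to equal length, the lists gave the opposite sign, with 1.49% in GSC and 0.970% in d4c7PGCLC. The kept shares of X and the autosomes were not compared at matched d4c7PGCLC strength, which went with being kept.

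**Figure D3:**
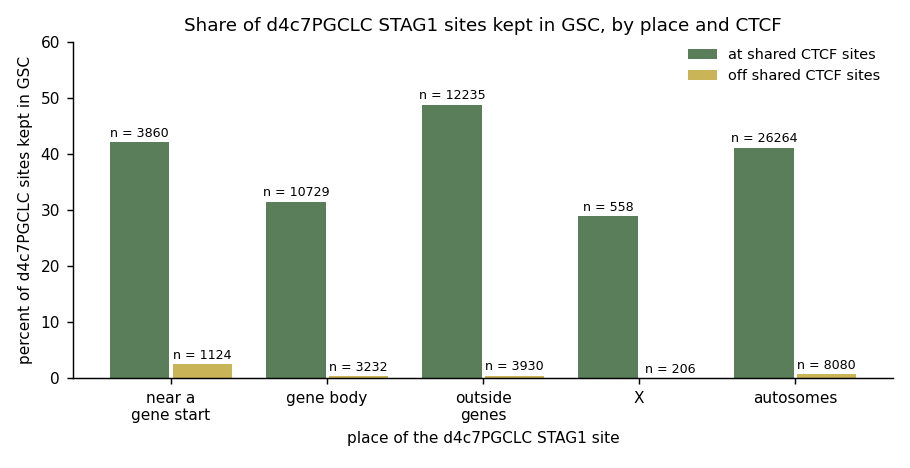
Share of d4c7PGCLC STAG1 sites kept in GSC (percent, y axis) by place (x axis), at shared CTCF sites (green) and away from them (yellow), with the number of sites above each bar. At shared CTCF sites the share is 48.7% outside genes, 31.5% in gene bodies and 28.9% on X, and away from them it is 2.49% or less everywhere.

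Over windows of 1 megabase with 10 or more d4c7PGCLC sites (1438 windows), the kept share had a median of 31.2%, a 10th percentile of 15.4% and a 90th of 47.4%. In 17 windows 0 sites were kept. One of these held 14 lost sites across the cluster of major urinary protein genes (chr4:60000001-61000000). At the other end, 8 of 10 sites were kept in the window of Lhx8, a homeobox gene of oocytes and neurons (chr3:154000001-155000000). These windows were picked for their values and carry no test.

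Some of the strongest d4c7PGCLC sites had no STAG1 peak in GSC. The strongest lost site lay at the start of Scnn1g, a subunit of the epithelial sodium channel (chr7:121733983-121734731). It had 90.8 and 75.5 in the d4c7PGCLC lists, and had been called in all 6 ESC, EpiLC and d2PGCLC lists at 18.3 to 69.7. CTCF was called there in all 4 GSC lists, which are of mutant genotypes, at 17.2 to 27.4, with weak GSC STAG2 peaks of 4.97 and 6.86 in 2 of 3 lists, against 66.4, 54.8 and 52.0 in d4c7PGCLC. The site at the start of Tgfb3, a TGF-beta family ligand (chr12:86079135-86079880), had 60.8 and 60.8 in d4c7PGCLC. It still had GSC STAG2 peaks of 17.4, 13.1 and 17.2, against 92.2, 79.8 and 60.7 in d4c7PGCLC. The site near Cyp17a1, an enzyme of steroid hormone synthesis (chr19:46670667-46671330), had 65.7 and 58.5 and a d4c7PGCLC STAG2 fold enrichment of 172, 117 and 122, against 17.0, 10.2 and 6.86 in GSC. Among the 10 lost sites with the best rank were also those in Ank3, a membrane scaffold of neurons (64.6 and 64.4), and Pibf1, a centrosomal protein (54.9 and 57.6). Those near Plpp3, Cdc42ep1, Scgb1c1, Smu1 and Mroh9 had 52.7 to 70.1. All 10 lay at shared CTCF sites, and each had a STAG2 peak in at least 1 GSC list. These 10 were chosen by their d4c7PGCLC values, and fold enrichment is not comparable between lists as a level.

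The 5 kept sites with the best rank were strong in all 4 STAG1 lists. The site outside Tcf3, a transcription factor of the E-protein family (chr10:80445918-80446878), had 53.3 and 43.6 in GSC, against 91.8 and 95.0 in d4c7PGCLC. The site in Bcl11b, a zinc finger regulator of T cells (chr12:107998574-107999270), had 52.3 and 44.7 in GSC, against 94.2 and 75.1 in d4c7PGCLC. Those near 1700001O22Rik, Skida1 and Osmr, the oncostatin M receptor, had 39.0 to 42.6 in GSC, against 67.5 to 83.9 in d4c7PGCLC. All 5 had peaks in every STAG1, STAG2, STAG3 and CTCF list examined.

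The number of gained sites depended on the length of the lists, with 66 in the lists as deposited, 2482 at equal list length and 428 among sites called in any list. At the 66, median fold enrichment was 6.01 and 5.95 in the GSC lists, with a highest value of 12.1 and 9.23, against 8.95 and 9.15 at GSC sites shared with d4c7PGCLC, with a highest of 53.3 and 48.0. Their number was 349 without GSC list 1, 151 without GSC list 2 and 157 without d4c7PGCLC list 2. STAG2 covered 48.5%, 33.3% and 51.5% of the 66 in GSC, against 9.09%, 4.55% and 1.52% in d4c7PGCLC. The groups did not overlap, with a difference of 39.4 points (two-sided exact permutation p = 0.1). It was 19.5 points without GSC STAG1 list 1 (p = 0.2, exact permutation) and 19.2 points for sites called in any list (p = 0.2, exact permutation).

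A single stretch held 13 of the 66 gained sites. It spanned 24.41 kb across 1600014C10Rik (chr7:38175884-38200293), where each GSC STAG1 list had 20 peaks, covering 61.3% and 49.0% of the span. None of the 13 sites overlapped a peak of a CTCF list, of a GSC STAG2 list or of a d4c7PGCLC STAG1 or STAG2 list, and 1 overlapped a peak of a STAG3 list. The 4 CTCF lists had 3 peaks each in the span, and the d4c7PGCLC STAG1 lists 3 each, away from the gained sites. Fold enrichment in the stretch was 3.83 to 10.4 in GSC list 1 and 4.01 to 8.23 in list 2. Input libraries were not analysed here, so whether copy number, a transgene or the control library differs at this stretch was not tested. This stretch was singled out after its values were seen.

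**Figure D4:**
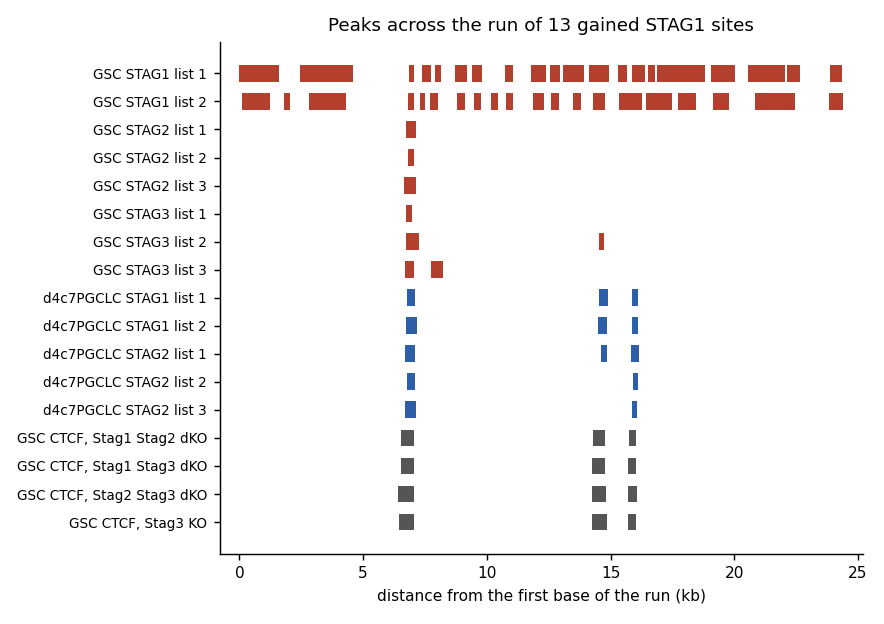
Peaks (bars) of each list (rows) across the 24.41 kb stretch with 13 gained sites, by distance from its first base in kb (x axis); wild-type GSC red, d4c7PGCLC blue, GSC CTCF lists grey. The 2 GSC STAG1 lists have 20 peaks each along the whole stretch, and every other list shown has 1 to 3.

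The other 53 gained sites lay at shared CTCF sites more often than the 13 of the stretch, of which 0 did. Their share there, 77.4%, was below the 98.9% and 97.0% of all peaks in the GSC STAG1 lists. Of the 53, 41 lay at shared CTCF sites, 31 had STAG2 in 2 or more GSC lists and 31 had STAG3 in 2 or more. A STAG1 peak had been called in ESC, EpiLC or d2PGCLC at 27 of them and at none of these stages at 26. The weakest of the 53 by worst rank of fold enrichment, near Tsc22d2, had 2.6 and 3.4 in the GSC STAG1 lists. Near Rasl11a, a RAS-like GTPase gene (chr5:146893882-146894199), the gained site had 8.39 and 8.78 in GSC. CTCF there was 25.0 to 26.4 in the 4 lists, and STAG2 7.04, 7.36 and 10.5 in GSC with no peak in d4c7PGCLC. The gained site near Fabp1, a fatty acid-binding protein of the liver (chr6:71176041-71176291), had 7.60 and 8.76, with CTCF at 34.7 to 39.4 and no STAG1 peak at any earlier stage. Gained sites near Cubn, Otud1, Spata32 and Tnfrsf14 had 6.43 to 8.95 and CTCF at 30.6 to 36.6. The gained sites in Hdx, a homeobox gene on X, and LOC108167368 were of another kind. They had no GSC STAG2 or STAG3 peak, and STAG1 peaks in all 6 lists of ESC, EpiLC and d2PGCLC (6.74 to 18.1). The same held for those in or near Pou3f3, Spata17, Tsc22d2 and Immp2l (2.24 to 26.3). Gained sites in or near Ccser1, Adam34l, Htr1b, Dock3, Sh2d4b, Tenm1 and Elf4 also had no GSC STAG2 or STAG3 peak. These had STAG1 peaks in some of the 6 earlier lists.

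Near gene starts, 13.8% of the 21887 protein-coding genes had lost sites alone within 2500 bp of a start (3014 genes), 7.71% had a kept site (1688) and 0.0137% a gained one (3). The 3 genes are 1600014C10Rik, 2210016L21Rik and Tnfrsf14. Of the 4702 genes with a d4c7PGCLC site, 35.9% had a kept one. Cut to equal length, the lists gave 351 genes with lost sites alone, 732 with a kept one and 382 with a gained one, and each of the 16 lists other than the Hox, protocadherin, ribosomal, olfactory, Zfp and histone genes had 0 or 1 genes with lost sites alone. The values given next are the highest fold enrichment of a STAG1 peak in a gene's window. No peak there means no STAG1 peak unless another protein is named. Other STAG proteins could still be called: Klf4 had GSC STAG2 peaks of 6.21, 5.62 and 7.80, while Pou5f1 had no GSC STAG2 or STAG3 peak.

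**Figure D5:**
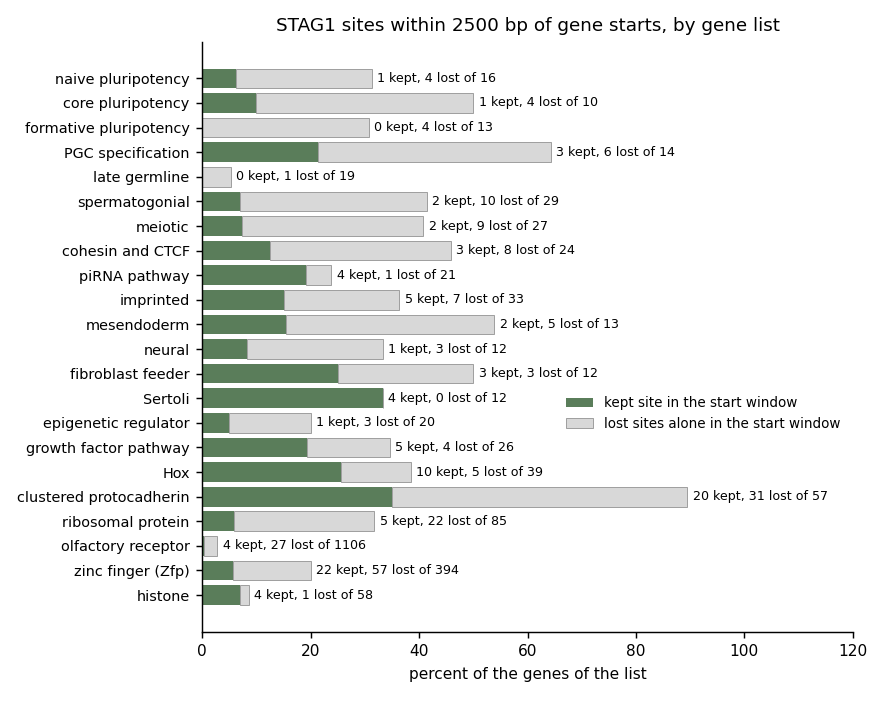
Genes of each list (rows) with a kept STAG1 site (green) or lost sites alone (grey) within 2500 bp of a start, as percent of the genes of the list (x axis), with the counts beside each bar. Clustered protocadherin genes have sites most often, in 51 of 57, and of the 12 Sertoli genes the 4 with a site all have a kept one. Over all genes 7.71% have a kept site and 13.8% lost sites alone, and 35.9% of genes with a site have a kept one.

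Among the cohesin genes and Ctcf, 3 of 24 had a kept site and 8 lost sites alone, against 3 and 1 at equal list length. This is a kept share of 27.3% of the genes with a site, against 35.9% over all genes. Stag2 had a kept site at a gene end, with 8.79 and 8.57 in GSC, against 28.3 and 27.6 in d4c7PGCLC. Pds5b, a regulator of cohesin release, had 11.8 and 12.4 in GSC, against 23.3 and 25.1 in d4c7PGCLC. Smc3, a core ring subunit, had no STAG1 peak in GSC, against 21.7 and 20.9 in d4c7PGCLC, while STAG2 was still called there in all 3 GSC lists (13.7, 9.95 and 13.3). Ctcf itself had no STAG1 peak in GSC, against 15.7 and 13.7 in d4c7PGCLC. Pds5a and Esco1, a cohesin acetyltransferase, also had lost sites alone. Stag3 and Rad21 had no STAG1 site in either cell type, and 1 d4c7PGCLC list had a single weak peak at Rad21 (3.70).

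Of the naive pluripotency genes 4 of 16 had lost sites alone and 1 a kept one. Of the genes with a site this is a kept share of 20.0%, against 35.9% over all genes, and it rests on 5 genes. At equal list length 0 had lost sites alone and 1 a kept one. Klf4 had no peak in GSC, against 10.4 and 9.34 in d4c7PGCLC, and Tbx3 none, against 9.85 and 11.7. The exception was Socs3, a feedback inhibitor of LIF signalling, with 6.01 and 8.57 in GSC, against 18.6 and 19.1 in d4c7PGCLC. Of the core pluripotency genes 4 of 10 had lost sites alone and 1 a kept one, against 0 and 1 at equal list length. Their kept share was also 20.0%, of 5 genes with a site. Pou5f1, which encodes OCT4, had no STAG1 or STAG2 peak in GSC, against 15.4 and 14.6 for STAG1 in d4c7PGCLC, at a place away from shared CTCF sites. Sall4 had none in GSC, against 15.4 and 16.5, and Sox2 kept a site, with 13.6 and 9.69 in GSC, against 29.5 and 27.9 in d4c7PGCLC. Of the formative genes 4 of 13 had lost sites alone and 0 of the 4 with a site a kept one, against 0 and 0 at equal list length. They include the de novo methyltransferase gene Dnmt3a, with no peak in GSC, against 11.1 and 12.3 in d4c7PGCLC.

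Of the germ cell genes, those of PGC specification had lost sites alone in 6 of 14 cases and a kept one in 3, a kept share of 33.3% of the genes with a site, against 35.9% over all genes. At equal list length 1 had lost sites alone and 2 a kept one. Tfap2c, a driver of PGC fate, had no peak in GSC, against 11.4 and 9.77 in d4c7PGCLC. Alpl, the alkaline phosphatase of early germ cells, had 9.92 and 10.3 in GSC, against 18.5 and 19.7, and Prdm1, beside its lost site, had a kept one with 6.51 and 10.7 in GSC. Of the late germline genes 1 of 19 had a site, Dazl, an RNA-binding protein gene, with no peak in GSC, against 10.9 and 7.01. Of the spermatogonial genes 10 of 29 had lost sites alone and 2 a kept one, against 1 and 2 at equal list length. The kept share was 16.7% of the 12 genes with a site, against 35.9% over all genes. Ret, the GDNF receptor tyrosine kinase, had no peak in GSC, against 10.0 and 10.1. Bcl6b, a factor of spermatogonial self-renewal, had 21.3 and 16.6 in GSC, against 39.3 and 45.0, and Egr2 6.20 and 7.79, against 23.3 and 25.1. Of the meiotic genes 9 of 27 had lost sites alone and 2 a kept one, against 1 and 1 at equal list length. Among the 11 meiotic genes with a site 18.2% had a kept one, against 35.9% over all genes. Stra8, needed to enter meiosis, had no peak in GSC, against 33.6 and 37.8 in d4c7PGCLC, the strongest lost site of any germ cell gene named here.

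The genes of the piRNA pathway, which silences transposons in the germline, had a kept site in 4 of 21 cases and lost sites alone in 1. Of the genes with a site this is a kept share of 80.0%, against 35.9% over all genes, and it rests on 5 genes. Spocd1, which links piRNA to DNA methylation, had 20.0 and 25.4 in GSC, against 55.9 and 52.0 in d4c7PGCLC. Piwil1 had 6.40 and 4.44, against 14.3 and 14.2, and Dnmt3l, a methyltransferase cofactor, 4.17 and 8.18, against 6.46 and 8.95. Tdrd12 had 6.40 in GSC list 1 alone, against 8.01 and 8.95. Tdrd7 had no peak in GSC, against 11.1 and 9.20. At equal list length 1 piRNA gene had a kept site and 0 lost sites alone.

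Of the imprinted genes 5 of 33 had a kept site, on 4 distinct sites, and 7 lost sites alone, against 3 and 0 at equal list length. Of the 12 with a site 41.7% had a kept one, against 35.9% over all genes. Peg10 had 10.6 and 12.5 in GSC, against 7.28 and 9.15 in d4c7PGCLC. Grb10 had 6.76 and 4.40, against 23.5 and 18.7, and Mest 6.86 in GSC list 2 alone, against 34.3 and 22.7. Peg3 and Usp29, which share a start region and a site, had no peak in GSC, against 6.96 and 8.76. Of the growth factor pathway genes 5 of 26 had a kept site and 4 lost sites alone, against 2 and 0 at equal list length. This is a kept share of 55.6% of the 9 genes with a site. Lif had 31.1 and 32.5 in GSC, against 57.6 and 36.9 in d4c7PGCLC, and Spry2, an FGF feedback inhibitor, 9.98 and 12.9, against 11.9 and 19.1. Of the epigenetic regulators 1 of 20 had a kept site and 3 lost sites alone, against 0 and 0 at equal list length. Their kept share, 25% against 35.9% over all genes, rests on 4 genes with a site.

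Developmental gene clusters held many sites. Of the Hox genes, which set positional identity, 10 of 39 had a kept site and 5 lost sites alone, and the 10 rest on 7 distinct sites. This is a kept share of 66.7% of the genes with a site, against 35.9% over all genes. Hoxb9 had 25.8 and 19.2 in GSC, against 39.0 and 47.3 in d4c7PGCLC, and Hoxc10 23.5 and 13.6, against 39.6 and 41.3. Hoxd12 had no peak in GSC, against 28.3 and 29.0, and Hoxd10 none, against 8.18 and 12.3. At equal list length 8 Hox genes had a kept site and 1 lost sites alone. Of the clustered protocadherin genes, adhesion genes of neurons whose promoters bind CTCF, 20 of 57 had a kept site and 31 lost sites alone. Among the 51 with a site 39.2% had a kept one, near the 35.9% over all genes. Their windows held 18 distinct kept and 35 distinct lost sites. Neighbouring genes of the gamma cluster differed: Pcdhgb7 had 16.8 and 23.1 in GSC, against 23.5 and 19.3 in d4c7PGCLC, and Pcdhga12 no peak, against 36.6 and 50.7. Pcdhac1 had 22.9 and 22.5 in GSC, against 16.9 and 12.4. For these genes either gene end was used, and with lists of equal length 1 of the 57 had a kept site and 1 lost sites alone.

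Marker genes of other cell types had sites too. Over all genes 7.71% had a kept site and 13.8% lost sites alone, and 35.9% of genes with a site had a kept one. Of the mesendoderm genes 2 of 13 had a kept site and 5 lost sites alone. Eomes had no peak in GSC, against 8.78 and 5.64 in d4c7PGCLC, and Foxa2 9.19 and 7.98, against 11.3 and 13.4. Of the neural genes 1 of 12 had a kept site, Neurog2, with 11.6 and 7.59 in GSC, against 13.3 and 14.0, and 3 had lost sites alone. At equal list length 0 mesendoderm and 0 neural genes had a kept site or lost sites alone. Other lists hold markers of cells that a GSC culture could hold, although the GSC were sorted for the AAG signal. Of the Sertoli genes 4 of 12 had a kept site and 0 lost sites alone, which rests on 4 genes with a site. At equal list length 2 had a kept site and 0 lost sites alone. Gdnf, the niche factor of spermatogonia, had 8.39 and 4.40 in GSC, against 34.0 and 35.8, and Sox9 10.2 and 7.77, against 19.5 and 14.0. Of the fibroblast feeder genes 3 of 12 had a kept site and 3 lost sites alone, against 1 and 0 at equal list length. Col1a1 had 16.6 and 21.0 in GSC, against 37.9 and 46.9. Peaks at these genes do not show which cells they came from, and the part of other cells was not tested.

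The large families are read against the 13.8% of all genes with lost sites alone and the 7.71% with a kept one. Of the ribosomal protein genes 22 of 85 (25.9%) had lost sites alone and 5 (5.88%) a kept one, with Rpl8 at no peak in GSC, against 18.0 and 17.3, and Rpl26 at 6.60 and 7.40, against 7.34 and 6.06. Of 394 Zfp genes 57 (14.5%) had lost sites alone and 22 (5.58%) a kept one, near the shares of all genes. Of 1106 olfactory receptor genes 27 (2.44%) had lost sites alone and 4 (0.362%) a kept one. Zfp703 had 23.3 and 22.7 in GSC, against 56.4 and 51.7. Of 58 histone genes 4 had a kept site, on 2 distinct sites, and 1 lost sites alone. At equal list length 1 ribosomal protein gene had lost sites alone and 1 a kept one. The same counts were 6 and 8 for Zfp, 4 and 2 for olfactory receptor and 0 and 1 for histone genes. Genes that share a site are counted each, and no count of a list was tested against the rest of the genes.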

How the data were processed

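STAG1, STAG2, STAG3 and CTCF ChIP-seq of mouse cells was analysed from 30 peak lists, in a series of 92 samples. Per the labels, each CTCF list names both replicates of its genotype, and the other lists belong to 1 sample each. Per the submitters' processing notes, the authors' tools included MACS2 (no version), Bowtie2 2.3.4.1, Trim Galore 0.4.1 and SAMtools 1.7, and the builds were mm10 and GRCm38.p3. For caller options and control libraries, no statement is given in the sources used here. The deposited lists give each peak's fold enrichment (a linear ratio) and −log10 of its q-value, at least 2 throughout. Peak positions were used as deposited, with overlap of at least 1 bp. Depth is unknown, so no interval was computed.

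Sites, classes and shares were computed in Python 3.11.15 with numpy 2.4.6 and pandas 2.3.3, and the code was tested on simulated peaks. Groups were compared by two-sided exact permutation of lists. Gene starts came from the RefSeq promoter table of GRCm38.p6 (17492 of 21887 protein-coding genes), with either gene end where it had none (4395). Only names, promoters and gene positions of that release, a patch of the same build, were used. Of 304 list entries 3 were not matched, and 2 were matched by synonym.

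Named were Stag1, Stag2, Stag3, Rad21 and Ctcf, the 10 lost, 10 gained and 5 kept sites with the best worst rank of fold enrichment, and examples of up to 4 genes per list and class by the same rank. The 5 promoters printed were chosen after their values were seen. The members and the gene lists were chosen with earlier results of these data known. Alternatives were a stricter q, equal list lengths, overlap of 50%, sites in any list, CTCF in any genotype, a window of 1000 bp, each list left out, and a replicate block.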

Additional observations from a re-analysis of the deposited data

How the results depend on the processing

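List length moved most of the counts. With 9641 peaks in each STAG1 list and 13698 in each STAG2 list, lost sites numbered 2881, kept sites 5273 and gained sites 2482, and the GSC minus d4c7PGCLC difference near gene starts turned to 0.69 points, on X to 0.52 points and in STAG2 cover of kept sites to 0.78 points. Sites called in any list gave 428 gained sites. Leaving out each list in turn gave 24954 to 30784 lost, 9277 to 11229 kept and 87 to 349 gained sites. The difference near starts then ranged between −0.58 and 0.00775 points, and that in STAG2 cover of kept sites between −3.63 and 2.29 points, with signs that turned without GSC STAG1 list 2 (0.69 points), GSC STAG2 list 2 (2.29) or d4c7PGCLC STAG2 list 1 (0.60). The differences in peak number, CTCF share and STAG2 cover of lost sites, and kept minus lost, had the same sign under every alternative run. The stretch on chromosome 7, left out as an alternative chosen after seeing the data, gave 53 gained sites and a STAG2 difference of 49.1 points. Of 47 counts of genes per list and class, 38 moved by over 1.5 times at equal length, 19 with the window of 1000 bp and 0 with −log10 q of at least 5.

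Between same-numbered lists, deviations of log2 fold enrichment over kept sites correlated at −0.00233 for STAG1. For STAG2 the values were 0.0200, −0.00720 and 0.00865, and not every list correlated best with its own number. With 2 lists per cell type the STAG1 deviations mirror each other, so that value cannot tell same-numbered pairs apart. A shared preparation that shifts whole lists was not tested. With the replicate block the values were equal (−1.98 in log2 peak number, 27.2 points at CTCF, −0.29 near starts, −0.70 on X, −59.8, −1.45, 58.3 and 39.4 for STAG2 at lost, kept, kept minus lost and gained sites), with exact sign-flip p of 0.5, 0.5, 1, 0.5, 0.25, 0.75, 0.25 and 0.25. Unknown depth limits every absence of a peak.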

Other observations

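STAG1 peaks on chromosome Y set the 2 GSC lists apart: list 2 had 61 and list 1 had 0, against 2 and 3 in the d4c7PGCLC lists. The CTCF lists of GSC had 70 to 401. None of the Y peaks made a GSC site, since a site needs both lists.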
